A study of Homo sapiens with 9 samples.

Results

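The genes described here are the cyclins, kinases and inhibitors that govern passage through G1, the phase of the cell cycle before DNA synthesis. They were taken by symbol from a table of raw read counts, and all 10 were found among its 26364 gene names. They are the D-type cyclins *CCND1*, *CCND2* and *CCND3*, the kinases *CDK4* and *CDK6*, the retinoblastoma gene *RB1*, the Cip/Kip inhibitors *CDKN1B* (p27) and *CDKN1C* (p57), and the INK4 inhibitors *CDKN2C* (p18) and *CDKN2D* (p19). The rule names them by gene function, and they were chosen with earlier results of these data known.

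RNA-seq was performed on A549, a human lung adenocarcinoma cell line, in 9 libraries of 4 groups. The control group (n = 2) was wild-type A549. The *LA* group (n = 2) carried the intergenic *LOC388942-ALK* fusion, made with guides sgLOC388942 and sgALK in Cas9-expressing cells. The study isolated such cells as monoclonal strains by limiting dilution. The labels do not say whether the fusion libraries came from the same clone. The sgScr group (n = 3) and the sgFOS group (n = 2) were fusion cells that had also received a scramble guide or guides against *FOS*, and the labels do not say which *FOS* guide each library carried. All 3 fusion groups thus shared both fusion guides, and the wild-type control, as labelled, had received none. The labels do not say whether replicates came from separate cultures, so every p-value below measures the spread between these libraries, which may be technical.

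D-type cyclins bind CDK4 or CDK6 when growth signals are present, and the active kinase phosphorylates the RB1 protein, which then releases E2F transcription factors that switch on genes for DNA synthesis. INK4 proteins bind CDK4 and CDK6 and block cyclin binding, whereas the Cip/Kip proteins p27 and p57 mainly inhibit complexes of CDK2 with cyclin E or A. FOS pairs with JUN proteins to form AP-1, a transcription factor long studied as a regulator of *CCND1*. A549 is known to have lost the INK4 genes *CDKN2A* (p16) and *CDKN2B* (p15).

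Total counts ranged from 14507228 to 20456341 per library. *FOS*, the edited gene, had 167 and 155 counts in control, 5448 and 1660 in *LA*, 4198, 4037 and 3528 in sgScr, and 1008 and 1113 in sgFOS. *CDKN2B* had 0 counts in all 9 libraries, and *CDKN2A* had 0 in 8 and 1 in the other. A count of 0 allows up to 3 counts at this depth, for counting error only. The epithelial markers KRT8, KRT18 and KRT7 were abundant in every library, their lowest levels being 2873, 1647 and 2269 CPM, or counts scaled to 1e6 per library. The other listed epithelial markers were much lower, at 32.6 to 174 CPM for KRT19, 18.6 to 102 for CDH1 and 3.01 to 13.1 for EPCAM. The 6 epithelial markers, mostly those 3 abundant keratins, summed to 13578 and 24663 CPM in the control libraries and to between 6970 and 12959 CPM in the 7 others. Of the other marker lists, the 5 immune markers summed to 24.8 and 34.2 CPM in control, 23.5 and 25.7 in *LA*, 29.1 to 30.6 in sgScr and 45.5 and 46.9 in sgFOS. CD68, which is not restricted to immune cells, made up nearly all of this at 23.5 to 46.7 CPM, while PTPRC and CD3E were at 0 counts throughout. The 5 fibroblast markers summed to 6.55 to 17.7 CPM over all libraries, mostly from COL1A1 (up to 271 counts), whereas DCN reached 1 count and COL1A2 2. The 3 endothelial and 4 alveolar markers summed to at most 1.06 and 0.67 CPM. The control libraries stood far apart, their counts differing by a chi-square of 134 for each degree of freedom, and so did the *LA* libraries, at 62.3. The sgScr pairs gave 1.79 to 2.72, and the sgFOS pair 1.76. The control libraries also differed from each other by transcript length. The log2 ratio of control replicate 1 over 2 had a Spearman rho of -0.32 with length, where the pairs within the other groups gave -0.05 to 0.07. In *LA* against control the log2 fold change of a gene rose with its transcript length (Spearman rho 0.52 across 13989 genes, which are not independent) and fell with its GC content (rho -0.30). In sgScr against control the same values were 0.54 and -0.37, whereas sgScr against *LA* gave -0.09 and -0.07 and sgFOS against sgScr gave -0.02 and 0.26. For this reason fold changes of the 10 genes against control are given below also after a correction for length and GC content.

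Promoter sequence is shown for 4 of the genes whose counts differed between groups, as a reference for their start regions. RefSeq windows were at hand for 7 of the 10 genes, and none for *CCND1*, *CCND2* and *CDKN1C*. The 250 bases before each listed start were placed on GRCh37 by exact match, and bases inside an annotated UTR were left out. Capitals mark matches to the E-box CACGTG, the site read by MYC and related factors.
CDK4, chr12:58146231-58146343, minus strand: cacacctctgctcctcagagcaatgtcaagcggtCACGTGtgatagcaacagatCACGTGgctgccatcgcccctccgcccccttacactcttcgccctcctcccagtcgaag
CDK6, chr7:92465888-92466137, minus strand: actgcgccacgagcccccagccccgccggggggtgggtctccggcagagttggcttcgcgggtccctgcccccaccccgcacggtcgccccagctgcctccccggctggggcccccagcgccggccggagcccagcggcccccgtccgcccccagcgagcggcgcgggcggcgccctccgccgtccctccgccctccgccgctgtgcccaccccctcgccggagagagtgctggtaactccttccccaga
CDKN1B, chr12:12870052-12870301, plus strand: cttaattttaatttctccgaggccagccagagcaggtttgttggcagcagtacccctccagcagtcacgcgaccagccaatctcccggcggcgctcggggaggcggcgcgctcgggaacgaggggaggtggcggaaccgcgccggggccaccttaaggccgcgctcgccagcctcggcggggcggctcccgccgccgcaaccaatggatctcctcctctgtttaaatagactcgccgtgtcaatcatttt
CDKN2C, chr1:51435667-51435916, plus strand: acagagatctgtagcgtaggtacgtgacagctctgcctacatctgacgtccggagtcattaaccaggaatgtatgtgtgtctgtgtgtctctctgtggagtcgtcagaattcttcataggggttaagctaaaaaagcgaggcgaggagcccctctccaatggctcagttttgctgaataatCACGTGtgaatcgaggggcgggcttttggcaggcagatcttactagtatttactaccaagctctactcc

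The 12 windows of the 7 genes were searched on both strands for 5 motifs: the AP-1 site TGANTCA, the CRE TGACGTCA, the E-box CACGTG, the E2F site TTTNGCGC and the forkhead site GTAAACA. The AP-1 and CRE letters begin and end alike, but no window held both. Of 35116 RefSeq windows of this length, 6.57% held an AP-1 site, 1.65% a CRE, 6.34% an E-box, 1.51% an E2F site and 2.98% a forkhead site. The *CDK4* window held 3 E-boxes, of which 2 lie in the stretch printed above. *CDKN2C* had 1 E-box in each of 2 of its 3 windows. The single *RB1* window lies inside the gene, at chr13:49050336-49050585, and held 1 AP-1 site. The other windows, those of *CCND3*, *CDK6*, *CDKN1B* and *CDKN2D* and the remaining 1 of *CDKN2C*, held none of the 5. These matches are letters in a window and were not tested for binding.

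Levels were then compared between the genes per length, as reads scaled by the union of exons and by library size (RPKM). *CCND1*, *CCND3* and *CDK4* held the top 3 ranks in every group. In control the mean level was 96.5 ± 40.6 RPKM (SD, n = 2) for *CCND1*, 74.2 ± 17.5 for *CDK4* and 59.1 ± 0.23 for *CCND3*. The 2 control libraries of *CCND1* overlapped those of *CDK4*, so this order is not set beyond their spread. *CDKN2C* followed at 13.4 ± 1.88 RPKM, and *CDKN2D*, *CDK6*, *CDKN1B* and *RB1* lay between 3.83 and 6.28 RPKM with overlapping libraries at each step. In *LA* the order was *CCND1* (102 ± 1.10 RPKM), *CCND3* (56.6 ± 14.3), *CDK4* (30.1 ± 4.45), *CDK6* (12.9 ± 2.14) and *RB1* (11.5 ± 3.34), and of these neighbours only *CDK6* and *RB1* overlapped. In sgScr *CCND3* (51.0 ± 1.90 RPKM, n = 3) stood above *CDK4* (46.5 ± 1.73), and in sgFOS *CDK4* (48.0 ± 1.96, n = 2) stood above *CCND3* (43.8 ± 1.49), with no overlap between the 2 genes in either group. The order among the top 3 depended on the length used. With the longest transcript in place of the union of exons, *CCND3* stood at 112 and 161 RPKM in *LA* and overlapped *CCND1* (114 and 116), was above *CCND1* in all 3 sgScr libraries (118 to 127 against 90.4 to 92.4), and was above *CDK4* in sgFOS (108 and 103 against 81.9 and 77.2). *CDKN1C* stayed at or below 0.56 RPKM as a group mean. *CCND2*, a D-type cyclin well known from lymphocytes and gonads, had 3 and 2 counts in control and 0 in all 7 fusion libraries. All of these are at or under the 3 counts that a count of 0 allows, so no fold is given.

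Levels of each gene across libraries are given as CPM, scaled by TMM over all 9 libraries. *CCND1* stood at 596 and 323 CPM in control, 484 and 491 in *LA*, 385, 383 and 392 in sgScr, and 516 and 533 in sgFOS. The control libraries enclosed all 7 others, and the sgScr libraries were the lowest of the fusion groups. *CCND3* stood at 342 and 340 CPM in control, 268 and 384 in *LA*, 282, 296 and 304 in sgScr, and 258 and 246 in sgFOS. The sgFOS libraries lay below all others, whereas the *LA* libraries lay on both sides of control and sgScr. *CDK4* stood at 268 and 191 CPM in control, 103 and 83.3 in *LA*, 141, 140 and 150 in sgScr, and 153 and 144 in sgFOS. Control was high and *LA* low without overlap, and sgScr and sgFOS overlapped each other between them.

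*CDK6* ran the other way, at 48.3 and 55.0 CPM in control, 177 and 140 in *LA*, 109, 114 and 111 in sgScr, and 127 and 125 in sgFOS. No groups overlapped, and control was the lowest. *RB1* stood at 10.3 and 39.0 CPM in control, 89.2 and 58.8 in *LA*, 63.6, 63.5 and 61.7 in sgScr, and 62.6 and 59.6 in sgFOS. Control replicate 1 was far below control replicate 2, both were below every fusion library, and the fusion groups overlapped.

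Of the inhibitors, *CDKN1B* stood at 36.2 and 40.7 CPM in control, 47.2 and 37.1 in *LA*, 36.2, 36.3 and 38.7 in sgScr, and 30.2 and 28.5 in sgFOS, the only group apart from the rest. *CDKN2C* stood at 44.5 and 36.5 CPM in control, 22.9 and 20.0 in *LA*, 24.1, 25.8 and 24.4 in sgScr, and 17.4 and 18.7 in sgFOS. Its 4 groups did not overlap, with control the highest and sgFOS the lowest. *CDKN2D* had 13.7 and 5.19 CPM in control and between 3.19 and 4.64 in the fusion libraries. *CDKN1C*, with 6 to 30 counts in any library, had 1.94 and 0.83 CPM in control and between 0.34 and 0.92 in the others. For both genes control replicate 1 was well above control replicate 2.

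**Figure D1:**
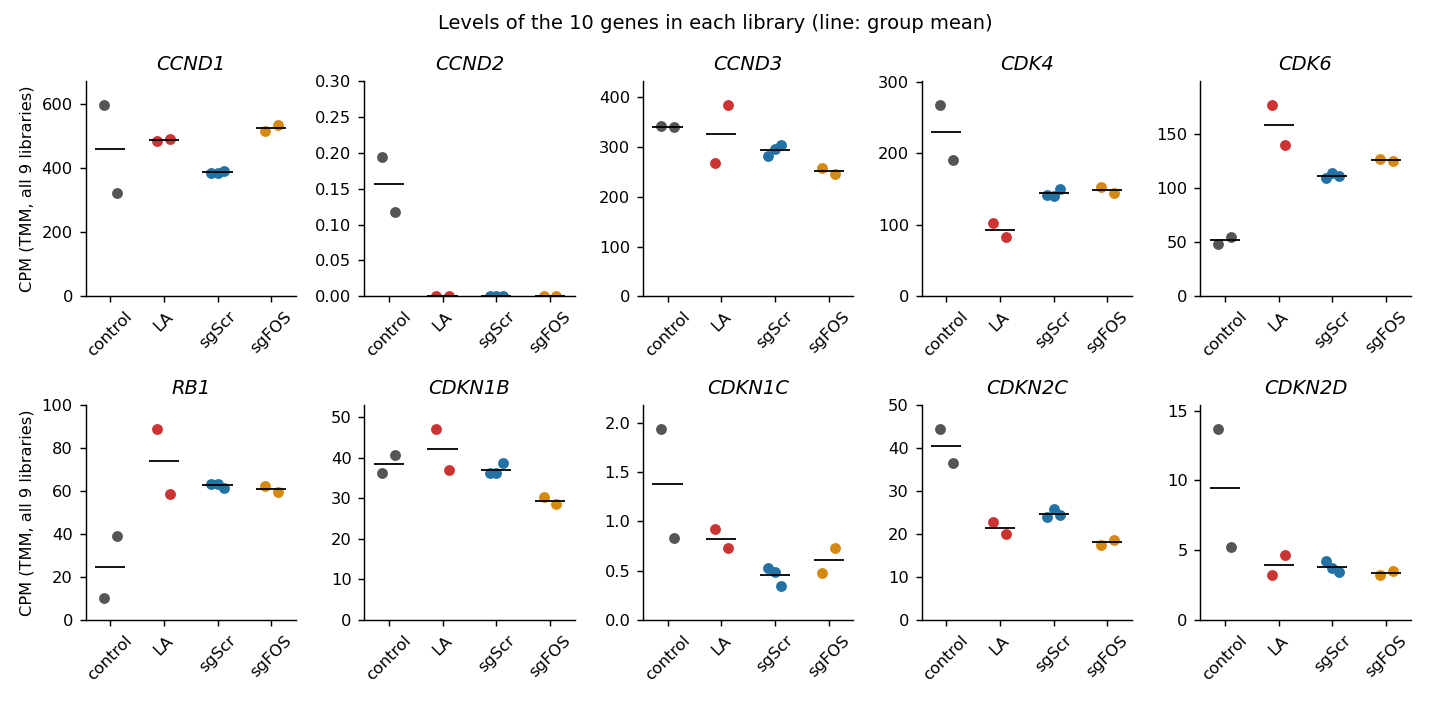
Level of each gene in CPM (TMM over all 9 libraries, linear axes from 0) in control (n = 2), *LA* (n = 2), sgScr (n = 3) and sgFOS (n = 2), with 1 point per library and a line at the group mean. *CDK6* and *RB1* are lowest in the control libraries, *CDK4* is lowest in *LA*, and *CCND2* is at 0 in all fusion libraries.

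Both *CDK4* and *CDK6* encode the kinase that D-type cyclins activate, so their balance was followed as the share of their summed RPKM. *CDK4* took 95.6% and 93.2% in the control libraries, 69.7% and 70.2% in *LA*, 83.7%, 83.0% and 84.2% in sgScr, and 82.6% and 82.0% in sgFOS. None of the 4 groups overlapped, although sgScr and sgFOS were close, at 83.6 ± 0.60% (SD, n = 3) and 82.3 ± 0.44% (n = 2). With the length of the longest transcript in place of all exons, the group means were 96.4%, 78.7%, 89.0% and 88.0%, in the same order. In a ratio of raw counts chosen after the values were seen, *CDK4* exceeded *CDK6* by 5.54 and 3.48 times in control. It had 0.58 and 0.60 counts for each count of *CDK6* in *LA*, 1.30, 1.23 and 1.35 in sgScr, and 1.20 and 1.15 in sgFOS. Neither shares nor ratios were corrected for the length and GC trend against control. After that correction the log2 fold changes against control were -0.68 for *CDK4* and 0.34 for *CDK6* in *LA*, and -0.10 and -0.12 in sgScr. None of these values passed in edgeR.

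Among the D-type cyclins, *CCND1* took 67.8% and 53.5% of the summed RPKM in control, 68.6% and 60.7% in *LA*, 62.3%, 61.1% and 60.9% in sgScr, and 70.7% and 72.4% in sgFOS. The sgFOS libraries were above all others, and the other 3 groups overlapped. With the longest transcript the means were 42.3%, 46.2%, 42.6% and 54.0%, so that the share itself depends on the length chosen while sgFOS remained the highest. No test was run on these shares, which follow from the gene levels above.

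**Figure D2:**
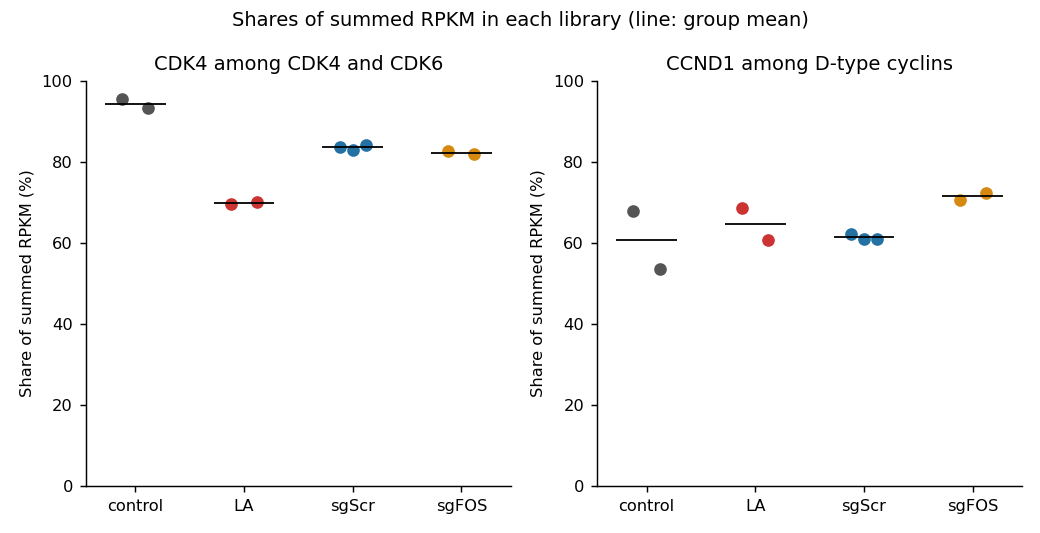
Share of *CDK4* in the summed RPKM of *CDK4* and *CDK6* (left) and of *CCND1* in that of the 3 D-type cyclins (right), in percent per library, with a line at the group mean. The *CDK4* share lies near 94.4% in control and near 70.0% in *LA*, and the *CCND1* share is highest in sgFOS, at 71.5%. The shares are not corrected for the length and GC trend against control.

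The first comparison asked how the fusion cells differed from wild-type A549. In *LA*, *CDK6* and *RB1* were higher and *CDK4* was lower by edgeR's quasi-likelihood test with Benjamini-Hochberg adjustment over 14425 genes. This was 2 of 9 tested genes higher and 1 of 9 lower, where 9.57% of all genes tested were called higher and 9.94% lower. *CDK6* rose 3.01-fold (log2 fold change 1.59, SE 0.40, edgeR adjusted p = 0.0084). *RB1*, whose product restrains E2F, rose 2.93-fold (1.55, SE 0.50, edgeR adjusted p = 0.031). *CDK4* was 2.50-fold lower (-1.32, SE 0.41, edgeR adjusted p = 0.025). In bulk RNA, fewer cells with a transcript and less of it per cell cannot be told apart.

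The *CDK6* transcript is 11663 bases long, the longest of the 10. After the length and GC correction its log2 fold change was 0.34 (SE 0.28, edgeR adjusted p = 0.43), and that of *CDK4*, whose longest transcript has 1865 bases, was -0.68 (SE 0.28, edgeR adjusted p = 0.13). *RB1* kept its call, at 1.26 (SE 0.37, edgeR adjusted p = 0.047). Without control replicate 1 the log2 fold change of *RB1* was 0.85 and that of *CDK4* was -1.11, neither past the threshold (edgeR adjusted p = 0.18 and 0.056), and without control replicate 2 the *RB1* value was 2.76. Without *LA* replicate 1 or 2 none of the 3 passed, with log2 fold changes of 1.38 and 1.78 for *CDK6*, 1.18 and 1.84 for *RB1*, and -1.52 and -1.15 for *CDK4* (edgeR adjusted p from 0.12 to 0.46).

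The inhibitors *CDKN2C* and *CDKN2D* had log2 fold changes of -0.94 (SE 0.42) and -1.28 (SE 0.56) in *LA* and did not pass (edgeR adjusted p = 0.11 and 0.10), although neither overlapped between the groups. Without control replicate 2, which left a single control library and so no spread for a call, they stood at -1.14 and -1.89. After the correction they stood at -0.60 and -0.20 (edgeR adjusted p = 0.20 and 0.77). *CCND1* (0.07, SE 0.42), *CCND3* (-0.09, SE 0.41), *CDKN1B* (0.11, SE 0.41) and *CDKN1C* (-0.75, SE 0.79) did not pass either, and their standard errors leave room for changes in both directions. After the correction these 4 stood at -0.13, 0.33, -0.27 and 0.17, with none past the threshold in edgeR.

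Genes in 3 lists of neighbours give the surroundings of these values. Of 24 G1/S partners, which include the cyclin E and CDK2 genes and the E2F family, 22 were tested in *LA* against control, 2 were higher and 1 was lower, with a median log2 fold change of 0.07 beside 0.04 over all genes. The higher ones were *RBL2*, a relative of *RB1* (1.65, edgeR adjusted p = 0.022), and *GSK3B*, a kinase that marks cyclin D1 for degradation (1.40, edgeR adjusted p = 0.018). The lower one was *CKS1B*, which helps degrade p27 (-1.83, edgeR adjusted p = 0.0053). Of 25 E2F targets 4 were lower and 0 higher by edgeR (median -0.27), where 1 of those with a positive value had an unadjusted p under 0.05 and DESeq2 called 7 lower and 1 higher. Among the lower ones were *GINS2* (-1.85) and *PCNA* (-1.40), which act in DNA replication. Of 16 factors and kinases upstream of the D-type cyclins and p27, 3 were higher and 0 lower by edgeR (median 0.66), with 0 lower also at an unadjusted p under 0.05 and by DESeq2. The 3 were *EGFR* (4.06), *KLF6* (1.92) and *FOXO1* (1.61). After the correction the medians of the 3 lists were 0.01, -0.28 and 0.33, beside -0.03 over all genes. The E2F targets called lower went from 4 to 2, with *GINS2* kept and *MCM5* (-1.13, edgeR adjusted p = 0.028) newly called. Of the G1/S partners 1 was then higher and 3 were lower. New calls among them were *CDKN1A* (1.16, edgeR adjusted p = 0.032), *SKP2* (-1.17, edgeR adjusted p = 0.031) and *TFDP2* (-1.07, edgeR adjusted p = 0.026). The calls of *RBL2* (1.06, edgeR adjusted p = 0.085), *GSK3B* (0.54, edgeR adjusted p = 0.21), *PCNA* (-0.72, edgeR adjusted p = 0.15) and *FOXO1* (1.04, edgeR adjusted p = 0.089) ended with the correction. *CKS1B* (-1.08), *GINS2* (-1.60), *EGFR* (3.08) and *KLF6* (1.55) still passed in edgeR.

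The sgScr libraries gave a further comparison of fusion cells with the same 2 control libraries, so that its values are not independent of those above. *CDK6* was again higher and *CDK4*, *CDKN1C*, *CDKN2C* and *CDKN2D* were lower. This was 1 of 9 tested genes higher and 4 of 9 lower, where 19.8% of the 14482 genes tested were called higher and 21.7% lower. *CDK6* rose 2.17-fold (log2 fold change 1.12, SE 0.15, edgeR adjusted p = 0.0065). *CDK4* was 1.58-fold lower (-0.66, SE 0.17, edgeR adjusted p = 0.028). *CDKN2C*, the more abundant INK4 gene here, was 1.62-fold lower (-0.70, SE 0.15, edgeR adjusted p = 0.017). *CDKN2D* stood at -1.29 (SE 0.40) and *CDKN1C* at -1.56 (SE 0.48), both with an edgeR adjusted p of 0.044. *RB1* had a log2 fold change of 1.35 (SE 0.53) and did not pass by edgeR (adjusted p = 0.086), but did by DESeq2 (adjusted p = 0.0090). *CCND1* (-0.23, SE 0.25), *CCND3* (-0.20, SE 0.13) and *CDKN1B* (-0.04, SE 0.15) did not pass (edgeR adjusted p = 0.49, 0.25 and 0.83).

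All 5 of these calls ended after the length and GC correction. *CDK6* then stood at -0.12 (SE 0.17), on the other side of 0, *CDK4* at -0.10 (SE 0.09), *CDKN2C* at -0.35 (SE 0.12), *CDKN2D* at -0.15 (SE 0.19) and *CDKN1C* at -0.56 (SE 0.35). *CCND1* stood at -0.45 (SE 0.25) and *CCND3* at 0.22 (SE 0.17), neither past the threshold. *RB1* (1.04, SE 0.32, edgeR adjusted p = 0.044) and *CDKN1B* (-0.42, SE 0.12, edgeR adjusted p = 0.041) passed after it. Without any 1 of sgScr replicates 1, 2 and 3 no gene of the 10 passed in edgeR, with *CDK6* between 1.10 and 1.14 and an adjusted p of 0.055 to 0.056, although 3 to 5 of them had an unadjusted p under 0.05. This loss was not particular to the 10 genes. Of all genes, edgeR called 117 higher and 13 lower without replicate 1, and 3 higher and 0 lower without replicate 2 or 3. In these fits 5366 to 5557 genes had an unadjusted p under 0.05. Without control replicate 1, *CDKN2D* and *CDKN1C* stood at -0.45 and -0.85, *RB1* at 0.69, *CCND1* at 0.26 and *CCND3* at -0.21. Without control replicate 2, *RB1* stood at 2.62, *CCND1* at -0.61 and *CCND3* at -0.21. No call is read from these fits, because a single control library has no spread of its own. The direction of *CCND1* against control thus turned with the control library used.

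**Figure D3:**
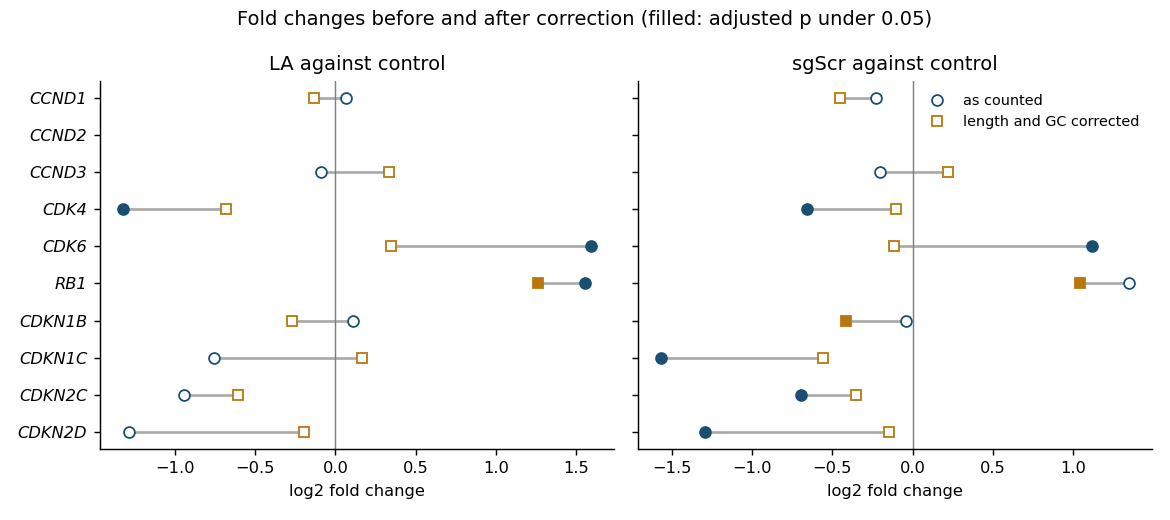
Log2 fold change of each gene against control in *LA* (left) and sgScr (right), as counted (circles) and after correction for transcript length and GC content (squares), filled where the edgeR adjusted p was under 0.05. The *CDK6* value moves from 1.59 to 0.34 in *LA* and from 1.12 to -0.12 in sgScr, while *RB1* stays above 1 in both.

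In the same comparison 6 of 22 tested G1/S partners were higher and 4 lower (median 0.29, beside 0.02 over all genes). *CDK2*, the kinase that acts after CDK4 and CDK6, was higher (1.18, edgeR adjusted p = 0.020). In *LA* against control it had stood at 0.19 without passing (edgeR adjusted p = 0.79). *RBL2* was also higher in sgScr (2.12, edgeR adjusted p = 0.022), with control replicates 1 and 2 apart at 7.82 and 26.8 CPM. Of the E2F targets 4 were higher and 7 lower (median 0.17), and of the upstream factors 10 were higher and 1 was lower (median 0.85). *EGFR* (3.15) and *KLF6* (2.20) again headed the upstream list and *MAPK3* (-0.60) was its lower gene. After the correction the medians were 0.29, 0.10 and 0.42, the E2F targets called lower went from 7 to 3, and *MAPK3*, at -0.01, was no longer called. *CDK2* (1.40), *RBL2* (1.53), *EGFR* (2.17) and *KLF6* (1.82) still passed in edgeR.

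How far libraries of the same fusion differed was seen in sgScr against *LA*. *CDK4* was higher and *CDK6* and *CCND1* were lower in sgScr. This was 1 of 9 tested genes higher and 2 of 9 lower, where 10.6% of the 14521 genes tested were called higher and 12.3% lower. *CDK4* was 1.53-fold higher (log2 fold change 0.61, SE 0.11, edgeR adjusted p = 0.017). *CDK6* was 1.44-fold lower (-0.53, SE 0.12, edgeR adjusted p = 0.026), and *CCND1* was 1.28-fold lower (-0.36, SE 0.08, edgeR adjusted p = 0.024). With the length and GC correction these values were 0.57, -0.46 and -0.32, all still past the threshold in edgeR.

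These 3 calls were lost in a fit of all 9 libraries, with log2 fold changes of 0.63 for *CDK4*, -0.51 for *CDK6* and -0.33 for *CCND1* (edgeR adjusted p = 0.057, 0.062 and 0.37). They were also lost without any 1 of sgScr replicates 1, 2 and 3, where *CDK4* stood between 0.58 and 0.63, *CDK6* between -0.54 and -0.51 and *CCND1* between -0.36 and -0.35 (edgeR adjusted p from 0.088 to 0.15). Calls over all genes also fell in these fits, to between 171 and 222 higher and between 218 and 310 lower, beside 1534 and 1793 with all libraries. Without *LA* replicate 2 *CDK6* stood at -0.68, *RB1* at -0.52 and *CDKN1B* at -0.37, and *CCND3* turned to 0.11. Without *LA* replicate 1 *CDK6* stood at -0.33, *CCND3* at -0.39 and *CDKN2C* at 0.30. No call is read from the fits with a single *LA* library, which has no spread of its own. *RB1* (-0.25, SE 0.17), *CCND3* (-0.17, SE 0.16), *CDKN1B* (-0.20, SE 0.13), *CDKN2C* (0.19, SE 0.11), *CDKN2D* (-0.07, SE 0.24) and *CDKN1C* (-0.86, SE 0.38) did not pass with all libraries. Among the lists, 6 of 22 G1/S partners were higher and 2 lower (median 0.19, beside -0.02 over all genes), with *CDK2* at 0.94 and *SKP2*, which marks p27 for degradation, at 0.82. Of the E2F targets 3 were higher and 0 lower by edgeR (median 0.27), with 0 lower also at an unadjusted p under 0.05 and by DESeq2. Of the upstream factors 1 was higher, *KLF4* (0.79), and 1 lower, *EGFR* (-0.96), with a median of 0.06.

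The last comparison, sgFOS against sgScr, asked what differed once *FOS* was edited in fusion cells. *CCND1* and *CDK6* were higher and *CCND3*, *CDKN1B* and *CDKN2C* were lower. This was 2 of 8 tested genes higher and 3 of 8 lower, where 12.2% of the 14196 genes tested were called higher and 10.5% lower. *CDKN1C* and *CCND2* were too low to be tested. *FOS* itself was 2.79-fold lower (log2 fold change -1.48, SE 0.04, edgeR adjusted p = 2.0e-25). The summed immune markers, mostly CD68, were also higher in sgFOS than in sgScr, at 45.5 and 46.9 CPM against 29.1 to 30.6, with PTPRC and CD3E at 0 in both groups.

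*CCND1* rose 1.36-fold (log2 fold change 0.44, SE 0.03, edgeR adjusted p = 4.9e-13), the larger of the 2 rises. The lowest sgFOS library, at 516 CPM, was above the highest sgScr library, at 392 CPM. *CCND3* fell, by contrast, and was 1.16-fold lower (-0.22, SE 0.04, edgeR adjusted p = 3.3e-05). *CDK6* rose 1.14-fold (0.18, SE 0.04, edgeR adjusted p = 0.00070), whereas *CDK4* (0.05, SE 0.04, edgeR adjusted p = 0.43) did not pass. *RB1* (-0.04, SE 0.05, edgeR adjusted p = 0.64) did not pass either.

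Both of the better-expressed inhibitors among the 10 genes fell. *CDKN2C* was 1.37-fold lower (log2 fold change -0.45, SE 0.09, edgeR adjusted p = 0.00011), and *CDKN1B* was 1.26-fold lower (-0.33, SE 0.07, edgeR adjusted p = 0.00039). *CDKN2D* had a value of -0.16 (SE 0.20) and did not pass (edgeR adjusted p = 0.62). After the length and GC correction the 5 called genes stood at 0.41 for *CCND1*, 0.24 for *CDK6*, -0.27 for *CCND3*, -0.31 for *CDKN1B* and -0.52 for *CDKN2C*, and all 5 passed in edgeR. The 5 calls also stood without any 1 of the 5 libraries, where *CCND1* ranged from 0.42 to 0.47. In a fit that shared its spread with the control and *LA* libraries, no gene was called by edgeR and 444 of 14849 had an unadjusted p under 0.05, while DESeq2 on the 5 libraries called 1962 genes and, of the 10 described here, 2 higher and 3 lower. As counted with all 5 libraries, each of the 5 changes was smaller than 0.5 on the log2 scale. *CDKN2C* exceeded that size after the correction and without sgFOS replicate 2 (-0.50, edgeR adjusted p = 0.00087).

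**Figure D4:**
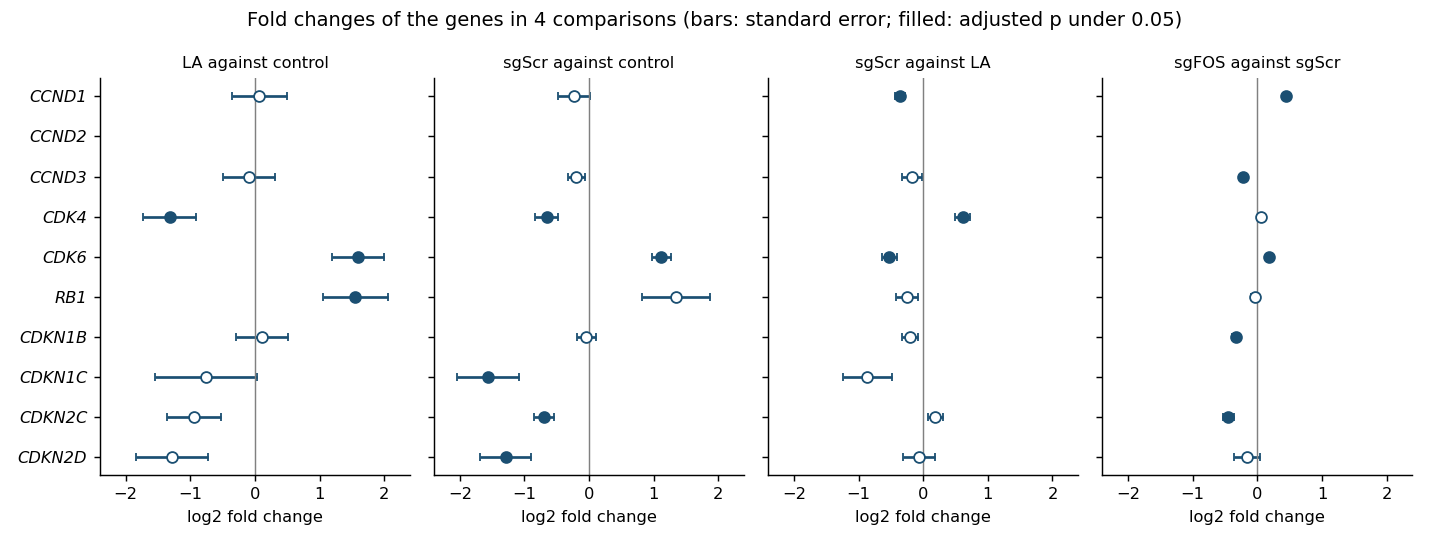
Log2 fold change of each gene in the 4 comparisons, with bars for the standard error and filled points where the edgeR adjusted p was under 0.05. Genes without a point were too low to be tested. Changes reach 1.59 against control with wide bars, whereas in sgFOS against sgScr *CCND1* stands at 0.44 with a standard error of 0.03.

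*CDKN1A* (p21), the Cip/Kip relative of p27 and p57, went in the other direction from *CDKN1B*. It stood at 87.3 and 84.0 CPM in control, 140 and 128 in *LA*, 118, 111 and 119 in sgScr, and 275 and 264 in sgFOS. The sgFOS libraries were above all others, and against sgScr *CDKN1A* rose 1.22 on the log2 scale (SE 0.04, edgeR adjusted p = 6.5e-25). In a ratio chosen after the values were seen, *CDKN1A* had 9.10 and 9.28 counts for each count of *CDKN1B* in sgFOS and 3.06 to 3.25 in sgScr.

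Of the 22 tested G1/S partners 2 rose and 4 fell in sgFOS (median -0.04, beside 0.00 over all genes). The other riser was *CCNE1*, the cyclin E1 gene (0.40, edgeR adjusted p = 1.0e-05), and among those that fell were *E2F2* (-0.42, edgeR adjusted p = 0.00044), *CKS1B* (-0.26) and *RBL2* (-0.23). Of the 25 E2F targets 18 fell and 0 rose by edgeR, and all 25 had a negative log2 fold change (median -0.16), where DESeq2 called 16 lower and 0 higher. The largest falls among them were those of *CCNA2*, the cyclin A2 gene (-0.41, edgeR adjusted p = 1.0e-08), *CDK1*, the mitotic kinase gene (-0.39, edgeR adjusted p = 2.9e-09), and *RFC4*, a DNA clamp loader subunit (-0.28, edgeR adjusted p = 0.00053). Of the 16 upstream factors 2 rose and 2 fell (median -0.05): *STAT3* (0.35) and *EGFR* (0.12) rose, and *KLF6* (-0.44) and *MYC* (-0.13) fell. With the length and GC correction 20 of the E2F targets fell by edgeR. Of the upstream factors 1 then rose and 3 fell, and *EGFR* (0.11, edgeR adjusted p = 0.054) no longer passed. As counted, DESeq2 called 1 upstream factor higher and 2 lower.

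**Figure D5:**
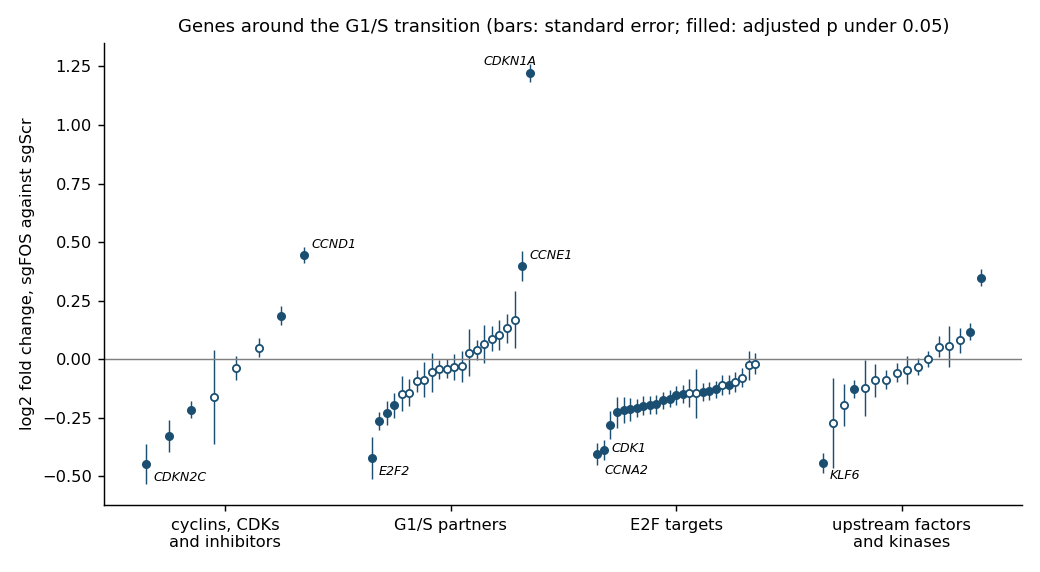
Log2 fold change in sgFOS against sgScr of the tested genes among the cyclins, kinases and inhibitors and among the 3 lists of G1/S partners, E2F targets and upstream factors, sorted within each list, with bars for the standard error and filled points where the edgeR adjusted p was under 0.05. *CDKN1A* stands highest at 1.22, and all 25 E2F targets lie below 0.

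A few of the genes share exon sequence with a neighbour on the opposite strand, and the strand setting of the counting is not given in the sources used here. *CDK4* (chr12:58141510-58149796) shares 1369 bp of exon with *TSPAN31*, which had 96 to 313 counts per library where *CDK4* had 1490 to 4142. *CCND1* (chr11:69455924-69469242) shares 497 bp with *ORAOV1*, also named *LTO1*, which had 225 to 430 counts where *CCND1* had 5467 to 9217. *CDKN2C* (chr1:51426417-51440306) shares 617 bp with an antisense noncoding gene not counted in the table. *CDK6* (chr7:92234235-92465887) shares 86 bp with *CDK6-AS1*. Coordinates are those of GRCh37.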

How the data were processed

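The deposited table holds a raw count for each gene in 9 libraries, without normalization by the authors. Per the study's methods and the submitters' processing notes, stranded mRNA libraries were sequenced as 150-bp pairs, aligned to hg19 with STAR 2.7.10b and compared with DESeq2 1.26.0. The counting program, annotation and strand setting are not given in the sources used here. Totals ranged from 14507228 to 20456341 counts per library, and intervals or limits from counts cover counting error only.

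Counts were tested in R 4.3.3 with edgeR 4.0.16 (TMM, filterByExpr, quasi-likelihood test, libraries of the 2 groups compared, two-sided, Benjamini-Hochberg adjustment over all genes, threshold 0.05). As alternatives, the test was run with library size only, with RLE size factors, with DESeq2 1.42.0, without a filter or with a mean of at least 50 counts, on all 9 libraries together, with a replicate block, with a loess correction (span 0.5) for length and GC content, at a log2 fold change over 0.5 with an unadjusted p under 0.05, and without each library in turn. Gene lengths came from GENCODE on GRCh37, matched for 23818 gene names. RPKM used the union of exons. Procedures were tested on simulated data with 200 changed genes. Figures were drawn with Python 3.11.15 and matplotlib 3.10.9.

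All 10 genes are reported in every comparison where they were tested. From the lists of G1/S partners, E2F targets and upstream factors, up to 3 called genes in each direction with the largest change and a mean of at least 50 counts could be named. In *LA* against control, list genes newly called after the length and GC correction were named as well. *FOS*, *CDKN1A*, *CDKN2A* and *CDKN2B* were read as checks or relatives. The genes and lists were chosen with earlier results of these data known. Other experiments of the study were not analysed here.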

Additional observations from a re-analysis of the deposited data

How the results depend on the processing

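Of 487 recomputed fold changes of the 10 genes, 379 kept their direction and their side of the threshold, 67 lost a call, 21 gained one and 20 changed sign. Precision was limited by the control and *LA* pairs, whose libraries differed far more than those of sgScr or sgFOS, and by the low counts of *CDKN1C* and *CCND2*. A library left alone in its group was assumed to vary like the other group. Unless a value or the loss of a library shows it, the cause of a difference below was not tested.

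With all 9 libraries in one fit, the genes called numbered 6799 in *LA* against control (2814 with the 2 groups alone), 1436 in sgScr against *LA* (3327 alone) and 0 in sgFOS against sgScr (3221 alone), where edgeR gave 444 genes an unadjusted p under 0.05 and DESeq2 on the 5 libraries called 1962. In sgScr against control that fit called 3358 genes higher and 3439 lower. Of the 10 genes, 3 were then lower in *LA* against control, 2 were higher in sgScr against control, and 0 were called in either direction by edgeR in sgScr against *LA* and in sgFOS against sgScr, where 2 and 1 had an unadjusted p under 0.05. DESeq2 on the 2 groups called 3 and 5 of the 10 in those comparisons and 2 higher in sgScr against control. At a log2 fold change over 0.5 with an unadjusted p under 0.05, 4977 genes were called in *LA* against control and 818 in sgFOS against sgScr. The calls were 3534 higher and 3632 lower in sgScr against control, and 1560 higher and 2200 lower in sgScr against *LA*. Of the 10 genes, 3 were then lower in *LA* against control, 2 higher in sgScr against control, 1 lower in sgScr against *LA*, and 0 higher and 0 lower in sgFOS against sgScr by edgeR, where 5 had an unadjusted p under 0.05.

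Library size alone moved the median log2 fold change of all genes from 0.04 to 0.33 in *LA* against control and from 0.02 to 0.20 in sgScr against control. The split of higher and lower calls moved from 1380 and 1434 to 1601 and 682 in *LA* against control, from 2872 and 3137 to 3003 and 2278 in sgScr against control, and from 1534 and 1793 to 1300 and 2142 in sgScr against *LA*. Of the 10 genes, 1 was then higher and 0 lower by edgeR in *LA* against control, where 3 had an unadjusted p under 0.05, and 2 were lower in sgScr against control. *CCND3* turned to 0.20 in *LA* against control and *CDKN1B* to 0.13 in sgScr against control.

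With the length and GC correction, 756 of 13989 genes tested were called higher and 1124 lower in *LA* against control. In sgScr against control 2545 of 14046 were called higher and 3035 lower. Of the 9 tested among the 10 genes, 1 was higher and 0 lower by edgeR in *LA* against control, where 2 had an unadjusted p under 0.05. In sgScr against control 1 was lower. The values that turned were -0.13 for *CCND1*, 0.33 for *CCND3*, -0.27 for *CDKN1B* and 0.17 for *CDKN1C* in *LA* against control, 0.22 for *CCND3* and -0.12 for *CDK6* in sgScr against control, 0.033 for *CDKN2D* in sgScr against *LA*, and 0.020 for *RB1* in sgFOS against sgScr.

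Replicate numbers did not pair the libraries, since deviations of libraries with the same number correlated at -0.26 in *LA* against control and between -0.14 and 0.05 in the other comparisons. With the replicate block, genes called numbered 1519 in *LA* against control, 3480 in sgScr against control and 1230 in sgScr against *LA*. Of the 10 genes, 0 were lower with the block in *LA* against control, 2 were higher and 0 lower in sgScr against control, and 0 were higher and 0 lower in sgScr against *LA* by edgeR, where 3, 3 and 2 had an unadjusted p under 0.05. *CDKN2D* stood at 0.014 with the block in sgScr against *LA*. The block changed no call of the 10 genes in sgFOS against sgScr. A crossed pairing in *LA* against control, chosen after seeing the data, called 3878 genes, and of the 10 it called 2 higher and 1 lower.

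Leaving out 1 library at a time, the genes called ranged from 253 to 5078 in *LA* against control, from 3 to 11715 in sgScr against control, from 389 to 9926 in sgScr against *LA* and from 1916 to 3518 in sgFOS against sgScr. Of the 10 genes, between 0 and 2 were higher and between 0 and 3 lower in *LA* against control, between 0 and 3 higher and between 0 and 6 lower in sgScr against control, and between 0 and 2 higher and between 0 and 4 lower in sgScr against *LA*. The zeros came without *LA* replicate 1 or 2, without control replicate 1 for the lower genes of *LA* against control, and without any 1 of the sgScr replicates, and 2 to 5 of the 10 genes had an unadjusted p under 0.05 there in edgeR. In *LA* against control the log2 fold change ranged from -0.38 to 0.52 for *CCND1*, from -0.34 to 0.12 for *CCND3* and from -0.11 to 0.30 for *CDKN1B*. In sgScr against control it ranged from -0.61 to 0.26 for *CCND1* and from -0.14 to 0.043 for *CDKN1B*. In sgScr against *LA* it ranged from -0.39 to 0.11 for *CCND3*, from -0.52 to 0.094 for *RB1* and from -0.29 to 0.24 for *CDKN2D*.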
